A study of Mus musculus with 2 samples.

Results

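The mitochondrial genome of the mouse encodes 37 genes, and all 37 were found among the 55536 annotated genes of the deposited tables by the gene-symbol prefix mt-. They were 2 ribosomal RNAs (rRNAs), 22 transfer RNAs (tRNAs) and 13 protein-coding genes, and each lay on the mitochondrial chromosome (chrM) of the mouse assembly mm10. Total RNA had been sequenced from gastrocnemius, a calf muscle, of 14-day-old female B6CASTF1/J mice, hybrids of C57BL/6J and CAST/EiJ, starting from 300 ng of RNA per library. The 2 libraries are biological replicates 1 and 2 of this single group, so nothing was compared between treatments, tissues or ages. The labels give both the same donor entry and speak of 3 females, but for replicate 2 the tissue text speaks of a female, so it is unclear whether each library is an animal or a pool and how far their spread is technical.

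Mitochondrial DNA is transcribed from both strands into long precursors, from which tRNAs are cut out and so release the rRNAs and most mRNAs. The 13 proteins are core subunits of respiratory complexes I, III and IV and of ATP synthase (complex V), which are completed by many more subunits made from nuclear genes. Muscle fibres are rich in mitochondria, and fragments of mitochondrial DNA that were copied into nuclear chromosomes long ago can carry almost the same sequence as the genes themselves.

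Each library was quantified in 2 ways from the same reads. The direct quantification gives estimated counts and TPM (a level per unit of transcript length, scaled so that each library has the same total) made straight from the reads. The gene tables, made from alignments to the transcriptome, give an expected count, which divides a read among the genes it fits, a TPM, a posterior mean TPM with an interval of unstated level, and the posterior standard deviation of each count. As both use the same reads, their difference describes the quantification and not the muscle, and no test across animals exists for it. Values are given for replicate 1 and then replicate 2, or as mean ± SD (n = 2).

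Gene counts summed to 35168525 and 41543692 in the direct quantification and 35592003 and 42105856 in the gene tables. The 6 fibre markers set for the tissue (Acta1, Ckm, Mylpf, Myh4, Tnnt3 and Ryr1) summed to 93573 and 98818 TPM in the gene tables, whereas 3 of 4 cardiomyocyte markers were at 0. The fourth, Myh6, had 104 TPM in replicate 2, against 63.2 TPM in replicate 1. Between the libraries the markers of blood and fibre type moved: the 3 erythroid markers summed to 1042 TPM in replicate 2, against 2051 TPM in replicate 1, and the 4 slow-fibre markers to 1651 TPM in replicate 2, against 949 TPM in replicate 1. Endothelial markers summed to 124 and 128 TPM, macrophage markers to 16.3 and 22.6 TPM and adipocyte markers to 9.82 and 12.1 TPM, with Ucp1 at 0.

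Of the 15 rRNA and coding members, 7 had a nearly identical copy in a block of annotated pseudogenes on chromosome 1. The block covers 4663 bases (chr1:24611535-24616197, mm10, minus strand), and its 7 pseudogenes follow each other in the order of their mitochondrial counterparts. Of these, 5 were identical to the member over their whole alignment and 2 carried 1 mismatch. Gm28661 matched mt-Co2 over 681 bases, Gm10925 mt-Atp6 over 678, Gm28437 mt-Co3 over 783, Gm10222 mt-Nd4l over 294 and Gm28439 the first part of mt-Nd4 over 876, all at 100%. Gm28438 matched mt-Nd3 at 99.7% over 345 bases, and Gm29216 matched the last part of mt-Co1 at 99.8% over 483 bases.

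The sequences below, read from the GENCODE M21 transcripts, show how little there is to tell a member from its copy over the part the copy covers. Capitals mark the bases by which the pair differs within the stretch shown: the 3′ end that the annotated copy lacks, or a mismatch. The member's stretch on the plus strand of chrM is followed by the copy's on the minus strand of chromosome 1, each read 5′ to 3′. The coordinates, in the same order, are chrM:7657-7696 and chr1:24614885-24614921 for mt-Co2 and Gm28661, chrM:8568-8607 and chr1:24613974-24614010 for mt-Atp6 and Gm10925, and chrM:9353-9390 and chr1:24613189-24613225 for mt-Co3 and Gm28437. They are chrM:9459-9481 and chr1:24613097-24613119 for mt-Nd3 and Gm28438, and chrM:6390-6413 and chr1:24616165-24616188 for mt-Co1 and Gm29216.
mt-Co2: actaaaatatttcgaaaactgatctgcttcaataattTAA
Gm28661: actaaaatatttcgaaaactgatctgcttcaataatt
mt-Atp6: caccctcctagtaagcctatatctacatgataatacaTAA
Gm10925: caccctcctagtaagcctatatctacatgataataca
mt-Co3: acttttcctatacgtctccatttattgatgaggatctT
Gm28437: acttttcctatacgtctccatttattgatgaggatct
mt-Nd3: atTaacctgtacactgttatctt
Gm28438: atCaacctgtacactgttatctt
mt-Co1: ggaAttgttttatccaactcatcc
Gm29216: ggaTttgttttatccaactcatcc

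The first 3 pairs differ, within the annotated transcripts, only in the stop codon at the 3′ end, which the copies' annotation leaves out. For mt-Co3 the stop is the single T, which, like those of mt-Nd4 and mt-Cytb, is completed to a stop codon when the RNA is polyadenylated. Within its alignment the mt-Nd3 pair differs by T3C and the mt-Co1 pair by A1066T. Positions are counted from 1 at the member's first base, and the member's base is given before the copy's. Outside the alignments, Gm28438 also lacks the last 3 bases of mt-Nd3, and Gm29216 matches mt-Co1 only from its own base 10. In the mt-Nd3 pair the difference falls in the start codon, which reads att in the member and atc in the copy.

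The share of its 100-base windows that a member has in common with any other annotated transcript sorted the 15 longer genes into 3 sets. There were 5 genes of which more than 97% of all 100-base windows were found elsewhere: mt-Co3 (99.9%, 1 window of its own out of 685), mt-Co2 (99.5%, 3 of 585), mt-Atp6 (99.5%, 3 of 582), mt-Nd4l (98.5%, 3 of 198) and mt-Nd3 (97.6%, 6 of 249). A further 3 were shared in part, mt-Nd4 at 60.8%, mt-Co1 at 30.8% and mt-Nd2 at 3.19%. The remaining 7, mt-Rnr1, mt-Rnr2, mt-Nd1, mt-Nd5, mt-Nd6, mt-Cytb and mt-Atp8, shared no window with any other annotated transcript.

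By class, rRNA held the largest share of the TPM of all genes. The 2 rRNAs held 13.5% and 11.2% in the direct quantification (12.3% ± 1.61) and 9.78% and 8.19% in the gene tables (8.99% ± 1.12). The 13 coding genes held 6.85% and 5.87% in the direct quantification (6.36% ± 0.696) and 4.85% and 4.27% in the gene tables (4.56% ± 0.412). For both classes the direct quantification gave the higher share in each library. In counts the classes nearly coincided between the quantifications, with rRNA at 9.70% and 7.87% in the direct quantification and 9.52% and 7.77% in the gene tables, and coding genes at 3.73% and 3.15% in the direct quantification and 3.57% and 3.05% in the gene tables. All 37 members together held 18.7% ± 2.31 of TPM in the direct quantification and 13.5% ± 1.53 in the gene tables. The labels describe the spike-ins as meant for libraries depleted of rRNA, so the levels of mt-Rnr1 and mt-Rnr2 are those left in the libraries and not those in the tissue.

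**Figure D1:**
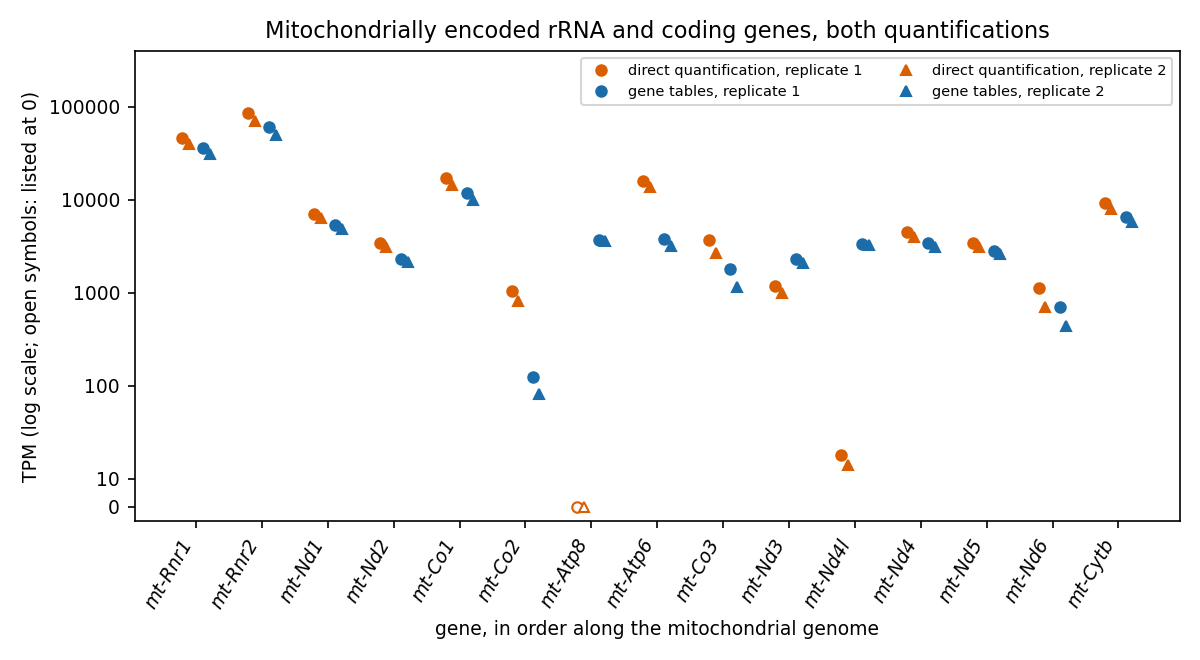
TPM (log scale) of the 15 rRNA and coding members in genome order, for both replicates, in the direct quantification and the gene tables; open symbols at the bottom mark 0. The points of both sources lie close for most genes, and far apart for mt-Co2, mt-Atp6, mt-Nd4l and mt-Atp8, which is at 0 in the direct quantification and at 3669 and 3559.8 TPM in the gene tables.

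The rRNAs form the core of the small and the large subunit of the mitochondrial ribosome. mt-Rnr2, the large-subunit rRNA (chrM:1094-2675), had 86094 and 70691 TPM in the direct quantification and 60294 and 50023 TPM in the gene tables. mt-Rnr1, the small-subunit rRNA (chrM:70-1024), had 46327 and 39318 TPM in the direct quantification and 36207 and 30885 TPM in the gene tables. mt-Rnr2 was the highest of all genes in the direct quantification and stood at rank 3 in the gene tables, and mt-Rnr1 stood at rank 4 in both. mt-Rnr2 over mt-Rnr1 was 1.86 and 1.80 in TPM of the direct quantification and 1.67 and 1.62 in the gene tables. The small-subunit rRNA was thus the lower of the pair by either source. Their log2 ratios of direct over gene-table TPM, 0.36 and 0.35 for mt-Rnr1 and 0.51 and 0.50 for mt-Rnr2, lay near the median of 0.41 over all 14558 genes with enough counts.

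All 22 tRNAs, which carry amino acids to the mitochondrial ribosome, were listed at 0 counts and 0 TPM in all tables of both libraries. They are 59 to 75 bases long, and the sequences show the shortest, mt-Ts2 for serine (chrM:11613-11671, plus strand), and the longest, mt-Tl1 for leucine (chrM:2676-2750, plus strand), whole, from the GENCODE M21 transcripts.
mt-Ts2: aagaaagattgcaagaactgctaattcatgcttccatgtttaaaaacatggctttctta
mt-Tl1: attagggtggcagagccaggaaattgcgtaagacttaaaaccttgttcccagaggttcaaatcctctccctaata

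The gene tables gave the tRNAs an effective length of 0, the length left for a fragment to start in once 99 bases are taken off. All 2398 annotated genes with effective length 0, the longest of 99 bases, were without a count in either quantification. The direct quantification gave the tRNAs effective lengths of 21.6 to 25.8 bases and still no count. A zero in the gene tables therefore says nothing of tRNA levels. A count of 0 allows up to 3 counts, or 0.0843 and 0.0713 CPM (counts scaled to the library total), which would limit reads assigned to a tRNA and not the tRNA itself. Of the tRNAs, 14 lie on the plus strand and 8 on the minus strand.

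Complex I, the NADH dehydrogenase through which electrons enter the respiratory chain, has 7 members. mt-Nd1 had 7042 and 6306 TPM in the direct quantification and 5347 and 4879 TPM in the gene tables. mt-Nd4 had 4462 and 3977 TPM in the direct quantification and 3397 and 3104 TPM in the gene tables. mt-Nd2 had 3421 and 3115 TPM in the direct quantification and 2298 and 2116 TPM in the gene tables. These 3 subunits, all in the membrane arm of the complex, had log2 ratios of direct over gene-table TPM between 0.36 and 0.57, around the median of 0.41 over all genes. Scaled to nuclear coding genes the ratios were -0.21 for mt-Nd1, -0.22 for mt-Nd4 and -0.03 for mt-Nd2. mt-Nd5 had 3419.8 and 3112 TPM in the direct quantification and 2783 and 2585 TPM in the gene tables. mt-Nd3 went the other way, at 1179 and 982 TPM in the direct quantification and 2307 and 2072 TPM in the gene tables. mt-Nd4l had 18.1 and 14.1 TPM in the direct quantification and 3332 and 3236 TPM in the gene tables. For mt-Nd4l, 297 bases long, the 2 sources thus placed the gene at rank 4443 in the direct quantification and rank 33 in the gene tables, by mean TPM over all genes.

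mt-Nd6 is the only coding member on the minus strand (chrM:13552-14070). It had 1125 and 706 TPM in the direct quantification and 696 and 437 TPM in the gene tables. It was 32.9% and 22.7% of mt-Nd5, the neighbour on the other strand, in the direct quantification and 24.99% and 16.9% in the gene tables. Their 3′ ends overlap by 14 bases (chrM:13552-13565). Whether the counting used the strand is not given in the sources used here, and without strand reads of mt-Nd6 and of RNA antisense to it cannot be told apart.

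The sole member of complex III is mt-Cytb, cytochrome b, which passes electrons from ubiquinol towards cytochrome c. mt-Cytb had 9207 and 7979 TPM in the direct quantification and 6605 and 5776 TPM in the gene tables. It stood at rank 3 of the 13 coding genes in the direct quantification and at rank 2 in the gene tables.

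Complex IV, cytochrome c oxidase, passes electrons to oxygen, and its 3 members make up its catalytic core. mt-Co1, which holds the site of oxygen reduction, had 17078 and 14379 TPM in the direct quantification and 11739 and 9979 TPM in the gene tables. It was the highest coding member in both. mt-Co2, which takes up electrons from cytochrome c, had 1049 and 823 TPM in the direct quantification and 123 and 80.9 TPM in the gene tables. mt-Co3 had 3649.6 and 2695 TPM in the direct quantification and 1809 and 1157 TPM in the gene tables. In the gene tables mt-Co2 was the lowest of the 13 coding genes and mt-Co1 averaged 10859 ± 1245 TPM, against 102 ± 29.9 TPM for mt-Co2.

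Complex V, ATP synthase, has mt-Atp6, which forms part of the proton channel, and mt-Atp8, a small subunit of the membrane sector. mt-Atp6 had 15802 and 13705 TPM in the direct quantification and 3787 and 3187 TPM in the gene tables. mt-Atp8 had 0 and 0 TPM in the direct quantification and 3669 and 3559.8 TPM in the gene tables. The genes overlap by 43 bases on the same strand and are translated from a shared mRNA. The end of mt-Atp8 (chrM:7917-7969, plus strand) is shown because it holds this overlap, in capitals.
mt-Atp8: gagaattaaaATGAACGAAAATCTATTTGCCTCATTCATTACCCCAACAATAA

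In TPM of the gene tables mt-Nd4l over mt-Nd4, which overlap by 7 bases and also share an mRNA, was 0.981 and 1.04. The ratio of mt-Atp8 to mt-Atp6 depended on the chromosome 1 copy, at 0.969 and 1.12 for mt-Atp6 alone and 0.258 and 0.281 with the reads given to Gm10925 added to it.

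Set against all genes, 3 of the 15 members with enough counts were at least 2-fold higher in TPM of the direct quantification in both libraries, where 5.41% of all genes were, and 2 of 15 at least 2-fold lower, where 2.00% of all genes were. The higher ones were mt-Co2 (log2 ratios 3.09 and 3.34), mt-Atp6 (2.06 and 2.10) and mt-Co3 (1.01 and 1.22). The lower ones were mt-Nd4l (-7.51 and -7.83) and mt-Atp8, with mt-Nd3 just outside at -0.97 and -1.08. mt-Co3 lay just inside. The other 9 members lay between 0.27 (mt-Nd5) and 0.69 (mt-Nd6), around the median of 0.41 over all genes. The medians of the rRNAs and the coding members were 0.43 and 0.47, and that of the 69 nuclear-encoded subunits of the same complexes was 0.60, with 13 of the 69 at least 2-fold higher and 0 lower.

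Each of the 3 higher members has an identical copy on chromosome 1, and the counts show how differently the reads of each pair were divided. The direct quantification gave mt-Co2 9079 and 8218 counts and Gm28661 163113 and 165391, whereas the gene tables gave mt-Co2 2027 and 1539 counts and Gm28661 216487 and 224467. The member thus held 5.27% and 4.73% of the pair in the direct quantification and 0.928% and 0.681% in the gene tables. In both quantifications nearly all reads fitting this pair were assigned to the pseudogene.

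The mt-Atp6 pair was divided in opposite ways. The direct quantification gave mt-Atp6 135533 and 135693 counts and Gm10925 631 and 207, while the gene tables gave mt-Atp6 62010.1 and 60306 counts and Gm10925 170006 and 178223. The member's share of the pair was 99.5% and 99.8% in the direct quantification and 26.7% and 25.3% in the gene tables.

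For mt-Co3 the member's share was 25.7% and 22.04% in the direct quantification and 17.0% and 12.5% in the gene tables. Its copy Gm28437 had 117942 and 123069 counts in the direct quantification and 170332 and 179751 in the gene tables. For mt-Co1 the member's share was 99.2% and 99.1% in the direct quantification and 89.9% and 90.2% in the gene tables, as Gm29216 had 4364 and 4504 counts in the direct quantification and 53527 and 51156 in the gene tables. The mt-Nd4 copy Gm28439 had 5378 and 6541 counts in the direct quantification and 0 in the gene tables. Gm28438 and Gm10222, the copies of mt-Nd3 and mt-Nd4l, named here after their values were seen, had at most 0.81 expected or estimated counts, whereas by posterior mean Gm10222 had 146 and 240.5 TPM and Gm28438 had 4.33 and 2.91 TPM. Gm10222, like the copies that took most reads, has no mismatch to its member, while Gm28438 has 1. Which molecule a read of an identical stretch came from cannot be told apart with these tables.

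**Figure D2:**
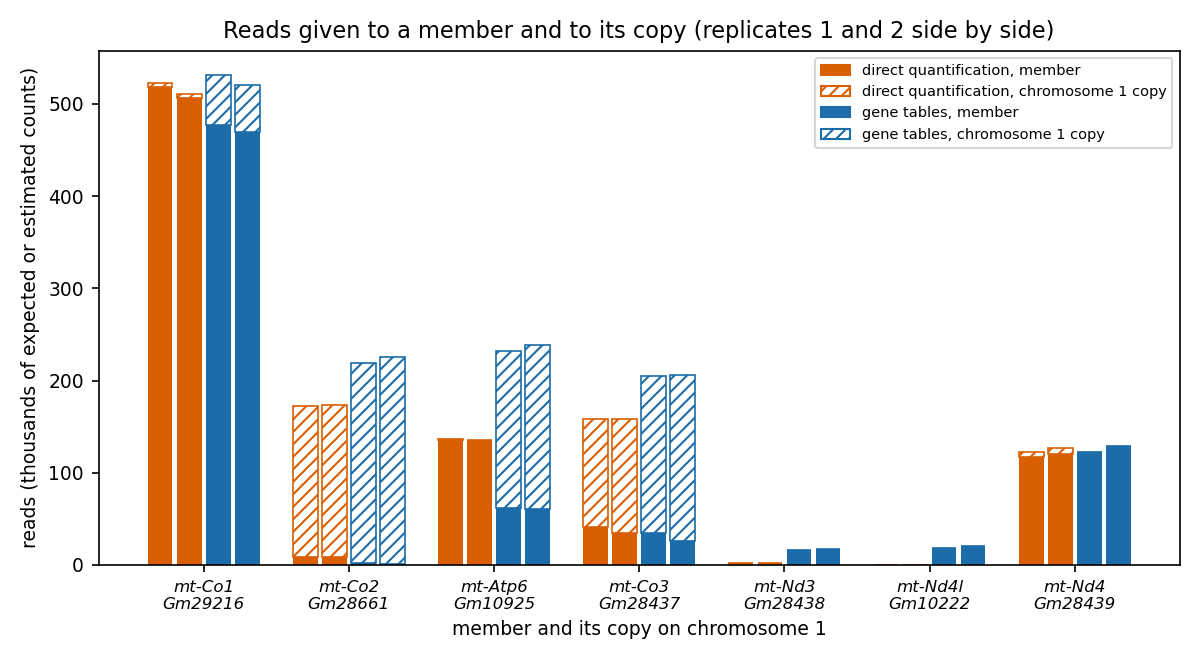
Counts of reads assigned to each member (filled) and its chromosome 1 copy (hatched, stacked on top), in the direct quantification (orange) and the gene tables (blue), with replicates 1 and 2 side by side. The mt-Atp6 pair has 99.5% and 99.8% of its reads with the member in the direct quantification and 26.7% and 25.3% in the gene tables, while the mt-Co2 pair is mostly hatched in both.

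Adding the copies changed the ratio of direct quantification over gene tables in different ways from gene to gene. The count ratio of mt-Co2 was 4.48 and 5.34 alone and 0.788 and 0.768 with its copy, and that of mt-Atp6 was 2.19 and 2.25 alone and 0.587 and 0.570 with its copy. The count ratio of mt-Co3 was 1.17 and 1.35 alone and 0.774 and 0.768 with its copy, which in replicate 1 is farther from 1. With copies, the count ratios of mt-Co1 and mt-Nd4 lay between 0.982 and 0.999. In TPM the ratio was 8.52 and 10.2 for mt-Co2 alone and 1.504 and 1.47 with its copy, and for mt-Atp6 4.17 and 4.30 alone and 1.12 and 1.08 with its copy. For mt-Co3 it was 2.02 and 2.33 alone and 1.33 and 1.33 with its copy, and for mt-Co1 1.45 and 1.44 alone and 1.09 and 1.10 with its copy. These 4 ratios came nearer to 1 with the copy, whereas that of mt-Nd4 moved away from 1, at 1.31 and 1.28 alone and 1.43 and 1.42 with its copy. The median log2 TPM ratio over all genes was 0.41, however, so a TPM ratio of 1 lies below the typical gene. Nearing 1 is therefore not the same as nearing the typical gene. With the copies, the coding class held 9.34% ± 0.947 of TPM in the direct quantification and 8.15% ± 0.695 in the gene tables.

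The order of the coding genes by mean TPM depended on how the copies were counted. With each member summed with its copy, mt-Co2 had 20067 and 17528 TPM in the direct quantification and 13346 and 11944 TPM in the gene tables, and stood at rank 1 of 13 in the direct quantification and rank 3 in the gene tables. Without its copy mt-Co2 stood at rank 10 in the direct quantification and rank 13 in the gene tables. mt-Co1 with its copy came to 18121 and 15322 TPM in the direct quantification and 16581 and 13982 TPM in the gene tables. Summed in this way, mt-Co1, mt-Co2, mt-Atp6 and mt-Co3 took the first 4 places in both quantifications, followed by mt-Cytb and mt-Nd1, and mt-Nd6 was the lowest in the gene tables. The neighbours mt-Atp6 (13440 ± 1110 TPM) and mt-Co2 (12645 ± 991 TPM) in the gene tables differed by less than the SD of either, but mt-Atp6 was the higher in both libraries, by 879 and 711 TPM. The Spearman correlation of the direct quantification with the gene tables over the 13 genes was 0.555 for members alone and 0.78 with copies, given as a description of genes that share libraries. Between the replicates it was 0.978 in the direct quantification and 0.967 in the gene tables.

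For mt-Nd4l, mt-Atp8 and mt-Nd3 no copy took the missing reads. mt-Atp8 had 0 and 0 counts in the direct quantification and 10838 and 12152 in the gene tables, at least 3613-fold and 4051-fold lower with a floor of 3 counts per library. mt-Nd4l had 31 and 27 counts in the direct quantification and 18559 and 20828 in the gene tables, 599-fold and 771-fold lower. mt-Nd3 had 2514 and 2348 counts in the direct quantification and 16158 and 16774 in the gene tables, 6.43-fold and 7.14-fold lower. These 3 are the shortest coding members, and mt-Atp8 shares no window with another transcript.

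Short nuclear genes also had fewer counts in the direct quantification. Among nuclear genes with a single annotated transcript, the median count ratio of direct quantification over gene tables was 0.00308 and 0.00204 for the 115 genes of 100 to 350 bases. It was 0.305 and 0.309 for the 240 genes of 350 to 700 bases and 0.849 and 0.854 for the 178 genes of 700 to 1000 bases. From 1000 to 2000 bases (527 genes) it was 0.984 and 0.966, and in 1141 longer genes 1.07 and 1.07. mt-Nd4l, at 0.00167 and 0.00130, lay near the median of the shortest class, mt-Atp8 had no count, and mt-Nd3, of 348 bases, lay above that median at 0.156 and 0.140. The effective length of mt-Nd5 was 341 bases below its length in the direct quantification and 99 bases below it in the gene tables. Whether the fragment length assumed by the direct quantification lowered these counts was not tested.

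**Figure D3:**
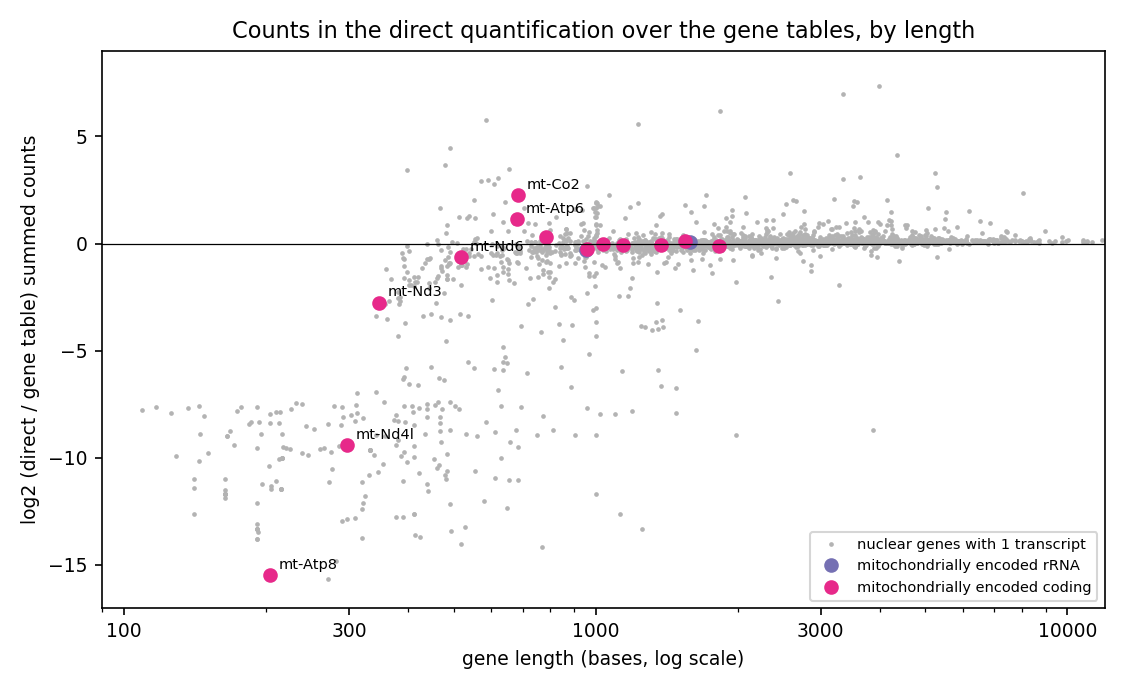
Log2 ratio of counts in the direct quantification over the gene tables, summed over both libraries with 0.5 added, against gene length in bases (log scale), for nuclear genes with a single transcript (grey) and the 15 rRNA and coding members (coloured). Below 350 bases nearly all nuclear genes lie far under 0, as do mt-Nd4l and mt-Atp8, while mt-Co2 and mt-Atp6 lie above 0.

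The posterior standard deviation of the gene tables, which is large where reads fit several genes, exceeded 1% of the expected count in both libraries for 4 of the 15 members, where 9.47% of the 13778 genes with enough counts did so. It was 141% and 185% of the count for mt-Co2, 18.0% and 28.2% for mt-Co3, 6.25% and 7.53% for mt-Atp6 and 2.12% and 2.45% for mt-Nd4l. For mt-Nd3 it was 0.164% and 0.133% and for mt-Co1 0.077% and 0.073%, even though 97.6% and 30.8% of their windows are shared. These 4 members are all among the 5 with over 97% of windows shared. For the 7 members with no shared window it was at most 0.000365% of the count.

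The posterior mean of the gene tables differed most from their TPM in the same members. For mt-Co2 it was 709 and 635 TPM (deposited intervals 414 to 1044 and 376 to 884), 5.75 and 7.84 times the TPM of the gene tables. For mt-Co3 it was 4077 and 3499.6 TPM (3562 to 4957 and 2977 to 4260.2), 2.25 and 3.02 times the TPM. For mt-Atp6 it was 4226 and 3691 TPM, 1.12 and 1.16 times, and for mt-Nd4l 3111 and 2933 TPM, 0.934 and 0.906 times. In the members with no shared window the posterior mean was 0.977 to 0.980 of the TPM. The TPM fell outside its deposited interval for 14 of 15 members in each library, the exceptions being mt-Atp6 in replicate 1 and mt-Nd6 in replicate 2. The share of all genes outside their intervals was not computed, so this count says nothing particular to the members. For mt-Co3 the choice turned the direction: the direct quantification was above the TPM of the gene tables but below their posterior mean, with a log2 ratio of -0.27 on average over the libraries.

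**Figure D4:**
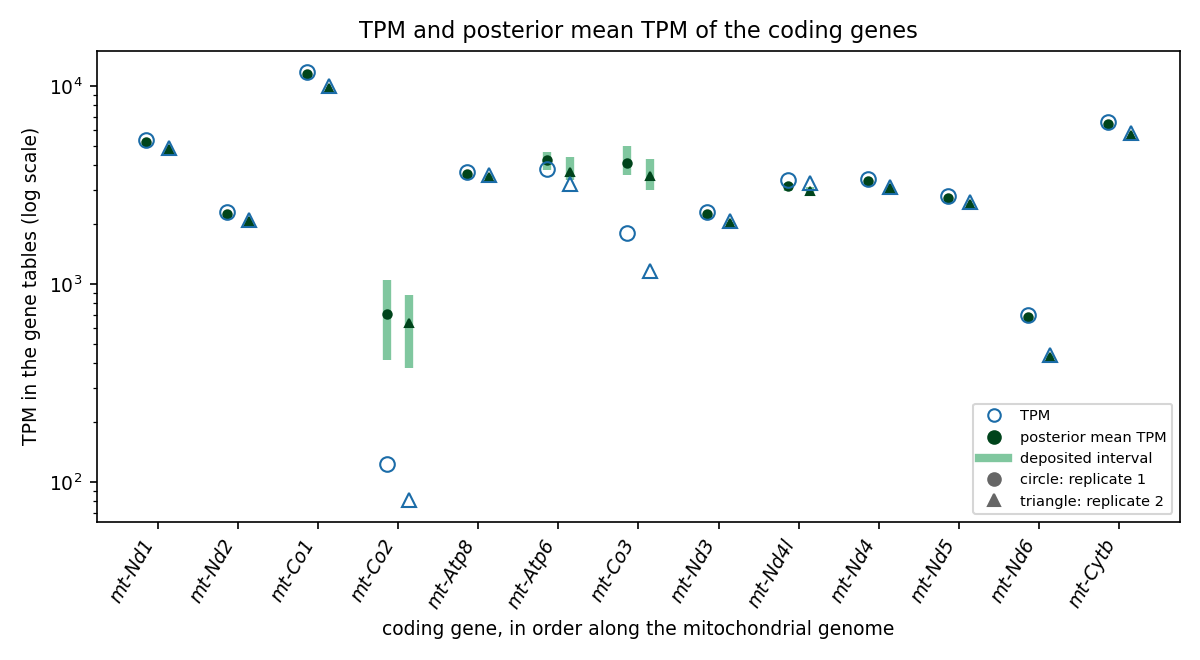
TPM (open symbols), posterior mean TPM (filled) and its deposited interval (green bar) of the 13 coding genes in the gene tables, on a log scale, with circles for replicate 1 and triangles for replicate 2. For mt-Co2 and mt-Co3 the TPM lies far below the interval, at 123 and 80.9 TPM for mt-Co2 under intervals of 414 to 1044 and 376 to 884, while for most other genes the symbols nearly coincide.

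Between the libraries, all members with counts were lower in replicate 2. In CPM of the gene tables all 15 of 15 were lower in replicate 2, where 30.0% of all 15721 genes with enough counts were. The log2 ratios of replicate 2 over replicate 1 had medians of -0.28 for the rRNAs and -0.19 for the coding genes, against 0.14 over all genes. The members past 1.5-fold lower were mt-Nd6, mt-Co3 and mt-Co2, 3 of 15, where 3.98% of all genes were, and 0 of 15 were past 1.5-fold higher, where 11.4% of all genes were. Changes in the number of cells or mitochondria and in RNA per cell cannot be told apart in bulk RNA. The erythroid and slow-fibre markers and Myh6 moved between the libraries too, and their part in these ratios was not tested.

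mt-Nd6 moved the most and did so in both quantifications. It had 91.9 CPM in replicate 2 and 151 CPM in replicate 1 of the direct quantification, and 142 CPM in replicate 2 and 231 CPM in replicate 1 of the gene tables. Its log2 ratio was -0.72 in the direct quantification and -0.71 in the gene tables, with a 95% exact binomial (Clopper-Pearson) interval of -0.75 to -0.66 that covers counting error only. The 12 coding members on the plus strand had a median of -0.18 in the gene tables. For mt-Co2 and mt-Co3, by contrast, the size depended on the source, at -0.38 and -0.47 in the direct quantification and -0.64 and -0.68 in the gene tables. In the direct quantification mt-Nd6 alone was past 1.5-fold lower, 1 of the 14 members with counts there, where 4.13% of all genes were. Summed with the copy, which was tried with the values already known, the mt-Co3 pair had 4881 CPM in replicate 2 and 5765 CPM in replicate 1 of the gene tables, a log2 ratio of -0.24, and the mt-Co2 pair had a log2 ratio of -0.19.

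The shift of the members depended on the scaling in size but mostly not in direction. TMM scaling, which brings the median of all genes to 0.00, gave medians of -0.42 for the rRNAs and -0.32 for the coding genes, and 15 of 15 lower, where 49.7% of all genes were. Scaling to the spike-ins, under which the median of all genes was 0.23, gave -0.19 for the rRNAs and -0.10 for the coding genes. Under it 13 of 15 were lower, where 20.4% of all genes were, and mt-Atp8 and mt-Nd4l were higher.

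Nuclear genes of the respiratory complexes were lower in replicate 2 as well. All 69 of 69 listed nuclear-encoded subunits were lower in CPM, where 30.0% of all genes were. Their median was -0.18, with medians of -0.16, -0.22, -0.20 and -0.20 for complexes I, III, IV and V. The range was -0.34 to -0.03, and 0 of 69 passed 1.5-fold, where 3.98% of all genes were past 1.5-fold lower. Of the 29 listed nuclear genes for mitochondrial transcription, replication and RNA processing, 14 were higher and 15 lower, where 30.0% of all genes were lower. Their median was -0.05, against 0.14 over all genes, and their range was -0.49 to 0.35.

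**Figure D5:**
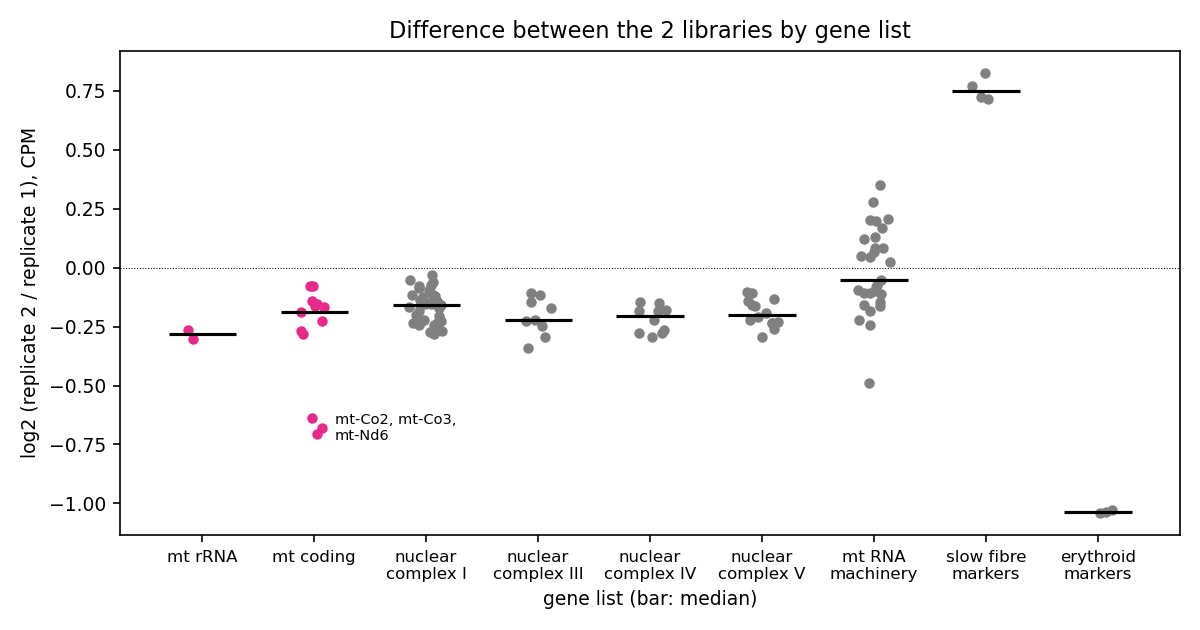
Log2 ratio of CPM of replicate 2 over replicate 1 in the gene tables for mitochondrially encoded (mt) rRNA and coding genes, nuclear-encoded subunits by complex, nuclear genes for mitochondrial transcription and RNA processing (mt RNA machinery) and 2 marker lists; each point is a gene, bars are medians and the dotted line marks 0. All 15 members and all 69 nuclear subunits lie below 0, with mt-Nd6 lowest of the members at -0.71, while the slow-fibre markers lie above 0.

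Of the nuclear genes for mitochondrial transcription and RNA processing, the 5 of highest mean TPM were Slirp, Fastk, Grsf1, Hsd17b10 and Tbrg4. Slirp, which with Lrpprc binds and stabilises mitochondrial mRNAs, had 71.3 and 64.3 TPM in the direct quantification and 68.9 and 69.4 TPM in the gene tables. Fastk, whose mitochondrial form is known for keeping mt-Nd6 RNA stable, had 133 and 119 TPM in the direct quantification and 65.3 and 64.2 TPM in the gene tables. Grsf1, an RNA-granule protein that binds G-rich mitochondrial RNA, had 93.4 and 92.0 TPM in the direct quantification and 56.4 and 54.5 TPM in the gene tables. Hsd17b10, a subunit of mitochondrial RNase P, had 66.1 and 63.2 TPM in the direct quantification and 46.1 and 44.5 TPM in the gene tables. Tbrg4, a relative of Fastk, had 37.3 and 33.1 TPM in the direct quantification and 30.2 and 31.5 TPM in the gene tables. None of the 29 genes was past 2-fold between the quantifications in both libraries or past 1.5-fold between the libraries.

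Set beside their partners, mitochondrially encoded subunits summed to more TPM than the nuclear-encoded subunits of the same complex for complexes I, III and IV in both quantifications. For complex I, the 7 members summed to 20667 and 18212 TPM and the 36 nuclear subunits to 12431 and 11265 TPM in the direct quantification, a ratio of 1.66 and 1.62, and the ratio was 2.46 and 2.46 in the gene tables. For complex III the ratio of mt-Cytb to 9 nuclear subunits was 1.63 and 1.59 in the direct quantification and 1.76 and 1.73 in the gene tables. For complex IV, 3 members to 10 nuclear subunits, it was 2.26 and 2.13 in the direct quantification and 2.21 and 2.08 in the gene tables.

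Complex V was the exception, with 2 members to 14 nuclear subunits. Its ratio passed 1 in the direct quantification alone, at 1.07 and 1.05 there and 0.843 and 0.855 in the gene tables. The nuclear sum lacks Atp5pb, a listed subunit whose symbol had no ID. In the direct quantification the members summed to 15802 and 13705 TPM and the 14 nuclear subunits to 14729 and 13097 TPM. Whether the ratio there would stay above 1 with Atp5pb is therefore not known. With the chromosome 1 copies added, the ratio in the gene tables became 2.02 and 2.06 for complex V and 6.55 and 6.52 for complex IV. In the direct quantification it became 1.08 and 1.05 for complex V and 5.45 and 5.36 for complex IV. The sums depend on the number of subunits listed and, for complexes IV and V, on the division of reads between the members and their copies. Those of complexes I and V in the direct quantification also include its low values for the short members mt-Nd4l, mt-Nd3 and mt-Atp8.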

How the data were processed

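Total RNA of 2 libraries of 1 group was analysed from tables the authors deposited. The expected counts, TPM, posterior mean TPM with interval, and posterior standard deviations of the deposited gene tables were made from transcriptome alignments, per the file headers and notes (mm10, GENCODE M21). Estimated counts and TPM of the deposited direct quantification, per the file headers, were made from the reads and summed per gene. The aligner, the quantifiers and the strand setting: not given in the sources used here. Of the annotated genes, 86 had no row in the direct quantification. The 26248 rows that carry a number in place of a name, with 1 and 0 counts in all, were left out.

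Shares are of the summed TPM or counts of annotated genes. Ratios between quantifications used log2(TPM + 0.1) for genes with a mean of at least 20 counts, so changes of low genes are understated. Ratios between libraries used CPM with a prior count of 0.5 for genes with at least 20 summed counts. A ratio was called past 2-fold in both libraries, or past 1.5-fold between libraries. With 1 library on each side no test across animals exists. Nuclear copies were annotated transcripts aligned with BLAST 2.17.0 at 90% identity or more over 100 bases or more. Sequences are those of GENCODE M21 transcripts. Alternatives were the other quantification, posterior means, counts, other scalings (edgeR 4.0.16 TMM, DESeq2 1.42.0, spike-ins), pseudocounts, priors and filters. Python 3.11.15, numpy 2.4.6, pandas 2.3.3, scipy 1.17.1, matplotlib 3.10.9 and R 4.3.3 were used.

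Members, lists and rules were chosen with earlier results of these data known. The text names all members, nuclear copies with a mean of at least 100 TPM and the 5 highest genes of the RNA processing list, and the rest were named once their values were known. Of 70 listed nuclear subunits 1 symbol, Atp5pb of complex V, had no ID, and of 1 symbol with 2 IDs the higher was kept.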

Additional observations from a re-analysis of the deposited data

How the results depend on the processing

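Which molecule a read of an identical stretch came from cannot be told from these tables, and the low counts of short members in the direct quantification were not tested for a cause. No paired analysis was possible because both libraries belong to 1 group. Leaving out either library leaves the value of the other, which the text gives for many results but not beside every mean.

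The rRNA share of TPM, 8.99% in the gene tables, was 12.3% in the direct quantification and 14.3% of nuclear coding and mitochondrial genes alone. The coding share, 4.56%, was 6.36% in the direct quantification, 3.31% in counts, 7.24% of nuclear coding and mitochondrial genes and 8.15% with copies. The median log2 ratio of direct quantification over gene tables was 0.43 for rRNAs and became -0.17 when scaled to nuclear coding genes, -0.077 in CPM and 0.46 with posterior means. That of coding members was 0.47 and became -0.12, -0.064 and 0.41 under the same changes, and 0.38 with copies added, a choice made after seeing the data. With posterior means mt-Co3 turned to -0.27 and 1 member, not 3, was at least 2-fold higher. Scaled to nuclear coding genes and in CPM, 2 members were, with mt-Co3 at 0.52 and 0.35 on average. Under the same 2 changes mt-Nd3 averaged -1.62 and -2.74, past 2-fold lower. The rRNA ratio of replicate 2 over replicate 1, -0.28 in CPM, was -0.42 under TMM, -0.42 under DESeq2 and -0.19 under spike-ins. The coding ratio, -0.19 in CPM, was -0.32 under TMM, -0.33 under DESeq2 and -0.10 under spike-ins. With the direct quantification 1 member, not 3, was past 1.5-fold lower.

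The ratio of mitochondrially encoded to nuclear-encoded subunits was 1.64 in the direct quantification, 3.32 in counts and 13.7 as a ratio of medians for complex I (2.46 in the gene tables), and 1.61, 2.44 and 14.5 for complex III (1.75). For complex IV (2.14) it was 6.31 in counts, 2.47 as medians and 6.53 with copies, and for complex V (0.849) 1.06 in the direct quantification, 0.298 in counts, 6.85 as medians and 2.04 with copies. The cause of these moves was not tested. In all, 74 recomputed values of class and complex results counted as unmoved and 31 as moved. For shares, ratios between quantifications and complex ratios the line was the SD over the replicates, and for counts of members 1.5 times. For ratios of replicate 2 over replicate 1 it was the SD over the genes of the class. The coding moves above stayed within that SD, and the rRNA moves above went past it. With 2 libraries, leaving out 1 always stays within the replicate SD, and the tRNA share was 0 in every setting. The number 74 is therefore not a measure of stability.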

Other observations

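Apart from the block on chromosome 1, 10 annotated nuclear genes aligned with members at identities of 90.7% to 97.6%. They took few reads in either quantification, at most 315 counts in the direct quantification and 117 in the gene tables. The 2 with the most, named after their values were seen, were Gm13340, a copy of mt-Co1, with 315 and 274 counts in the direct quantification and 98.0 and 71.1 in the gene tables, and Gm13341, a copy of mt-Co2, with 29.3 and 30.4 counts in the direct quantification and 117 and 99.1 in the gene tables. The base composition of the 15 rRNA and coding members ranged from 31.9% G and C in mt-Atp8 to 41.1% in mt-Nd4l.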
